A study of Mus musculus with 24 samples.

Results

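The nuclear-encoded oxidative phosphorylation genes are the chromosomal genes for subunits, and some assembly factors, of the 5 enzyme complexes of the mitochondrial inner membrane that make ATP. They were taken by name: protein-coding genes whose symbol begins with Nduf, Uqcr, Atp5 or Cox4 to Cox8, and Sdha, Sdhb, Sdhc and Sdhd. Of the 41388 genes in the files, 104 had such a name. Of these, 11 were not protein coding, Cox7a1 and Cox8b, which mark muscle and brown fat, were left out by name, and Cox7b2 and Cox8c fell under the minimum of 100 counts over all libraries, with 0 and 2 counts. The lowest totals inside that limit were 991 counts for Cox6b2 and 1326 for Cox4i2. This left 89 members: 44 of complex I, 4 of complex II, 8 of complex III, 16 of complex IV and 17 of complex V. The rule used no measured difference, and all 89 members passed the filter on low counts. Ndufa4 and Ndufa4l2, named for complex I, are counted here with complex IV, where the Ndufa4 protein is now placed.

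Complexes I and II pass electrons from NADH and succinate to ubiquinone, complex III passes them on to cytochrome c, and complex IV gives them to oxygen. Complexes I, III and IV pump protons as they do so, and complex V, the ATP synthase, uses the proton gradient to make ATP. Most subunits are encoded in the nucleus and imported, while a small core is encoded in mitochondrial DNA. White fat cells hold few mitochondria beside brown fat cells, and several complex IV subunits have isoforms that are bound to a tissue or to low oxygen.

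RNA was sequenced from 24 samples of inguinal white adipose tissue of male mice, the fat pad under the skin of the groin. In every group Nr3c2, which encodes the mineralocorticoid receptor, was floxed. Controls are described as floxed only, and the FMRKO mice (fat-specific mineralocorticoid receptor knockout) also carried Cre driven by the adiponectin promoter, Adipoq-Cre, which is active in fat cells. Each genotype was kept on chow, on high-fat diet (HFD) or given corticosterone, a glucocorticoid hormone, which makes 6 groups of 4 libraries. Chow is the reference for both treatments, since the sources used here name no vehicle group, dose, diet composition or length of treatment. A leading number stands in each of the 8 chow titles and in none of the other 16. If that form marks a batch, it cannot be told apart from diet or corticosterone in the comparisons with chow. Whether each library came from its own animal is not said. A p-value here therefore sets a difference of group means against the spread between libraries, which may not be that between animals.

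Total counts ran from 17925109 to 40427675 per library. Nr3c2 itself, counted over the whole gene because the floxed exons are not named in the labels, stood at 14.1 to 28.7 CPM (counts scaled to a common library size) in controls and 7.73 to 25.8 CPM in FMRKO libraries, with overlap on chow and none on HFD or with corticosterone. The fat cell genes Adipoq and Plin1 were abundant in every library, at no less than 802 and 696 CPM. The mean log2 CPM of 16 skeletal muscle genes stood above 3 in chow FMRKO library 5, HFD control library 3 and corticosterone control library 2. That of 17 lymphocyte genes did so in chow FMRKO libraries 1 and 3, HFD control libraries 1 and 4 and HFD FMRKO libraries 1 and 4. Results that rest on these libraries are given below with and without them.

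Levels of different genes were compared per length, as the deposited RPKM. In chow control libraries the highest member was Cox8a, a small complex IV subunit, at 637 ± 201 RPKM (SD, n = 4), followed by Cox6a1 at 506 ± 185. The complex V catalytic subunit Atp5b stood at 195 ± 54.2 RPKM. The median member stood at 26.6 RPKM in complex I, 40.6 in complex II, 57.2 in complex III, 55.9 in complex IV and 51.7 in complex V. The lowest were the muscle isoform Cox6a2 at 0.278 ± 0.320, the complex I subunit Ndufb2 at 1.09 ± 0.141, the testis isoform Cox6b2 at 1.62 ± 0.381 and the assembly factor Ndufaf4 at 1.63 ± 0.192 RPKM. The level of Ndufb2 rests on a gene model of 5628 exonic bases in the files. Its total count, 3742, was also low beside 15266 for the complex I subunit Ndufb6. Over the libraries Ndufb2 had r = -0.41 with the mean of the other members, the lowest value of the 89. Whether its reads stand for the subunit's transcript was not tested. Of the 89 members, 68 shared no exonic base with another annotated gene and 0 shared over 50% of their bases. The sources used here do not give the strand setting of the counting. Reads of Atp5o, Cox5a, Ndufa13 and Ndufb6, which share 30.2% to 39.0% of their bases with a gene on the other strand, cannot be assigned with certainty. The same holds for members with an annotated near copy elsewhere, among them Atp5k, Atp5l, Ndufab1, Uqcrh, Cox6c, Ndufs6 and Ndufa11.

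RefSeq promoter windows on GRCm38.p6, from 250 bases before to 50 after the gene start, were given for 73 of the 89 members, in 78 windows. They were searched on both strands for 6 motifs of factors known to act on respiratory genes or on the treatments studied. The motif of NRF1, a known activator of respiratory genes, searched by its core letters GCGCATGC, lay in 15.4% of the members' windows and 2.71% of all 32851 windows. It was found for 12 members: Ndufa6, Ndufa8, Ndufa11, Ndufaf4, Ndufaf5, Sdhb, Uqcr11, Uqcrc1, Cox6a1, Atp5g2, Atp5k and Atp5l. A window with several matches, or with overlapping matches on both strands, counts once. The ETS motif CCGGAAG, bound by GABP among others, lay in 23.1% of the members' windows against 8.86% of all, and the YY1 motif AANATGGC in 24.4% against 6.05%. The estrogen-related receptor motif AAGGTCA lay in 10.3% against 4.72%, and the HIF motif ACGTG in 23.1% against 19.62%. The half-site AGAACA of the glucocorticoid receptor lay in 12.8% of the members' windows and 18.97% of all. These are matches of letters, not measured sites. The 32851 windows were not limited to genes expressed in these libraries and were not matched for base content. How far this sets the differences in share was not tested. Printed here are Ndufaf4 at chr4:24897833-24898132 (plus strand) and Ndufa11 at chr17:56717512-56717811 (plus strand), the members of complex I with the largest rises with corticosterone in controls. Also printed is Cox6a1 at chr5:115348909-115349208 (minus strand), which had the largest rise in complex IV with corticosterone in FMRKO mice. The last is Sdhb at chr4:140961021-140961320 (plus strand), which was called with corticosterone in both genotypes and on HFD in neither. Capitals mark the NRF1 letters, read from either strand, in each of them, and a downstream ETS match in Cox6a1 and Sdhb. The printed windows are all among those of the 12 members with the NRF1 letters, so they do not show how often large risers hold them. Cox5a, Atp5d and Ndufv3, each the largest riser of its complex with corticosterone in at least 1 genotype, had windows without these letters.
Ndufaf4: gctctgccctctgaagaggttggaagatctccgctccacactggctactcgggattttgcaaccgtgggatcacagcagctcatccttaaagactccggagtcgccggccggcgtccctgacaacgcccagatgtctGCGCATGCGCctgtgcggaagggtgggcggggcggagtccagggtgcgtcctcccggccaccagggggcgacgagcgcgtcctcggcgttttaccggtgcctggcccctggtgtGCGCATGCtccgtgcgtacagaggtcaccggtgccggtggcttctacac
Ndufa11: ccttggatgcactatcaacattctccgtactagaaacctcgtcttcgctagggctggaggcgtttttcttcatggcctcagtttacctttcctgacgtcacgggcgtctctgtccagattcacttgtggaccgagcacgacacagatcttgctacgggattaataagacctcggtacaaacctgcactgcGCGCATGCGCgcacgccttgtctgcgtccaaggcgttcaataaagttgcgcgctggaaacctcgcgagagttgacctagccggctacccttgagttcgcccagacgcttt
Cox6a1: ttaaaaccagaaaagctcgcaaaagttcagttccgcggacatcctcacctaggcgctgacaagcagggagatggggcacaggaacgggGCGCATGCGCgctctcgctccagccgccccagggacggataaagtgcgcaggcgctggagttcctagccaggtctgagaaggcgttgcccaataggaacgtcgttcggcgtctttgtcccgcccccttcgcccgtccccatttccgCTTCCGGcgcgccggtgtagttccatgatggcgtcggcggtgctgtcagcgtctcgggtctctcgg
Sdhb: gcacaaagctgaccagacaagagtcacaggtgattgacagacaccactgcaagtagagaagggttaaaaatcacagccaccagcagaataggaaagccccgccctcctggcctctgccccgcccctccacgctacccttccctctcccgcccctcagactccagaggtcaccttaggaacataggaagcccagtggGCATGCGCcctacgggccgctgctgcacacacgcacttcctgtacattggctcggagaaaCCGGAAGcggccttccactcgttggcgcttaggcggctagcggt

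With corticosterone, members of all 5 complexes rose. Against chow, 77 of 89 members were higher and 0 lower in controls, where 20.2% of all genes tested were higher and 22.7% lower. In FMRKO mice 65 were higher and 1 lower, where 20.2% of all genes were higher and 20.9% lower (edgeR quasi-likelihood test, adjusted p under 0.05). In controls the median log2 fold change of the members was 0.60, against -0.12 over all genes, and in FMRKO mice it was 0.57 against -0.11. The libraries of the groups did not overlap, corticosterone above chow, for 51 members in controls, against 19.7% of all genes, and for 75 members in FMRKO mice, against 20.2%. In the other direction this held for Cox4i2 in controls, against 22.2% of all genes, and for 0 members in FMRKO mice, against 17.2%. In the mean over the members, chow control library 1, at 5.88, was the highest of the 8 chow libraries and above HFD control library 4, at 5.49. Beside these counts, 10 of 17 lymphocyte genes and 14 of 16 muscle genes fell with corticosterone in FMRKO mice, and 5 of 8 macrophage genes rose. On chow the mean log2 CPM of the muscle genes was 8.86 in FMRKO library 5 and -0.46 to 0.19 in the other FMRKO libraries. With corticosterone it was -0.34 to 0.82. That of the lymphocyte genes on chow was 6.00 and 5.04 in FMRKO libraries 1 and 3 and 0.22 and 0.50 in libraries 2 and 5, against -1.59 to 2.18 with corticosterone. The mean log2 CPM of the macrophage genes in FMRKO mice was 6.71 to 7.22 with corticosterone, against 5.53 to 6.13 on chow, and in controls 6.24 to 7.01 against 4.96 to 7.47. In controls the mean log2 CPM of the lymphocyte genes was -1.50 to -1.16 with corticosterone and 0.0650 to 0.377 on chow, with 0 of 17 called. The part of these cells in the members' values was not tested beyond the fits given here. Without the lymphocyte-rich libraries 83 members were called in controls and 43 in FMRKO mice. Without both kinds of rich libraries the counts were 82 and 7, the latter with 1 chow FMRKO library left.

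**Figure D1:**
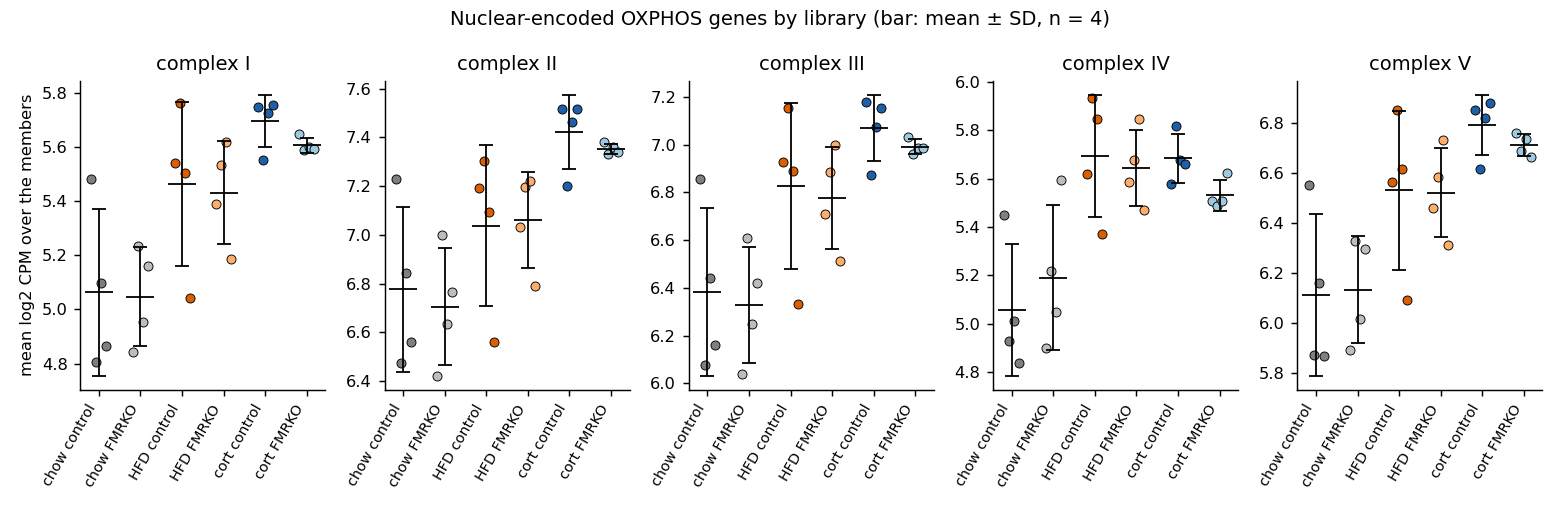
Mean log2 CPM over the members of each complex (y axis, its range set per panel) in each of the 24 libraries, by group (x axis), with the group mean and SD as bars (n = 4). For complex I the corticosterone libraries sit between 5.55 and 5.75 and the chow libraries between 4.81 and 5.48.

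On HFD members of all 5 complexes rose too, in smaller number. In controls 41 of 89 were higher and 1 lower against chow, where 15.3% of all genes tested were higher and 13.9% lower. In FMRKO mice 40 were higher and 1 lower, where 15.2% of all genes were higher and 9.18% lower. The median log2 fold change of the members was 0.41 in controls, against 0.01 over all genes, and 0.44 in FMRKO mice, against -0.06. Groups did not overlap, HFD above chow, for 6 members in controls and 36 in FMRKO mice, beside 11.5% and 13.5% of all genes. Below chow without overlap were Cox6b2 in controls, where 11.7% of all genes were, and Ndufb2 in FMRKO mice, where 8.88% were. The count of calls in HFD controls, 42, was 9 with a replicate block and 8 with the compared groups fitted alone. It also depended on single libraries. It was 17 without HFD control library 2, 21 without chow control library 2 and 18 without chow control library 5, and it was 64 without HFD control library 4 and 67 without chow control library 1. The HFD count in FMRKO mice was 16 without HFD FMRKO library 3, 21 without HFD FMRKO library 2, 25 without chow FMRKO library 1, 23 without the lymphocyte-rich libraries and 3 without both kinds of rich libraries. Beside these counts, 15 of 17 lymphocyte genes rose on HFD in controls and 13 of 16 muscle genes fell in FMRKO mice. The mean log2 CPM of the muscle genes was 8.86 in chow FMRKO library 5 and -0.46 to 0.19 in the other chow FMRKO libraries. In the HFD FMRKO libraries it was -0.12 to 0.89. That of the lymphocyte genes was 4.26 and 5.93 in HFD control libraries 1 and 4 and 1.18 and 1.57 in libraries 2 and 3, against 0.0650 to 0.377 in chow controls. In controls 66 members were called without the lymphocyte-rich libraries and 27 without the muscle-rich ones.

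**Figure D2:**
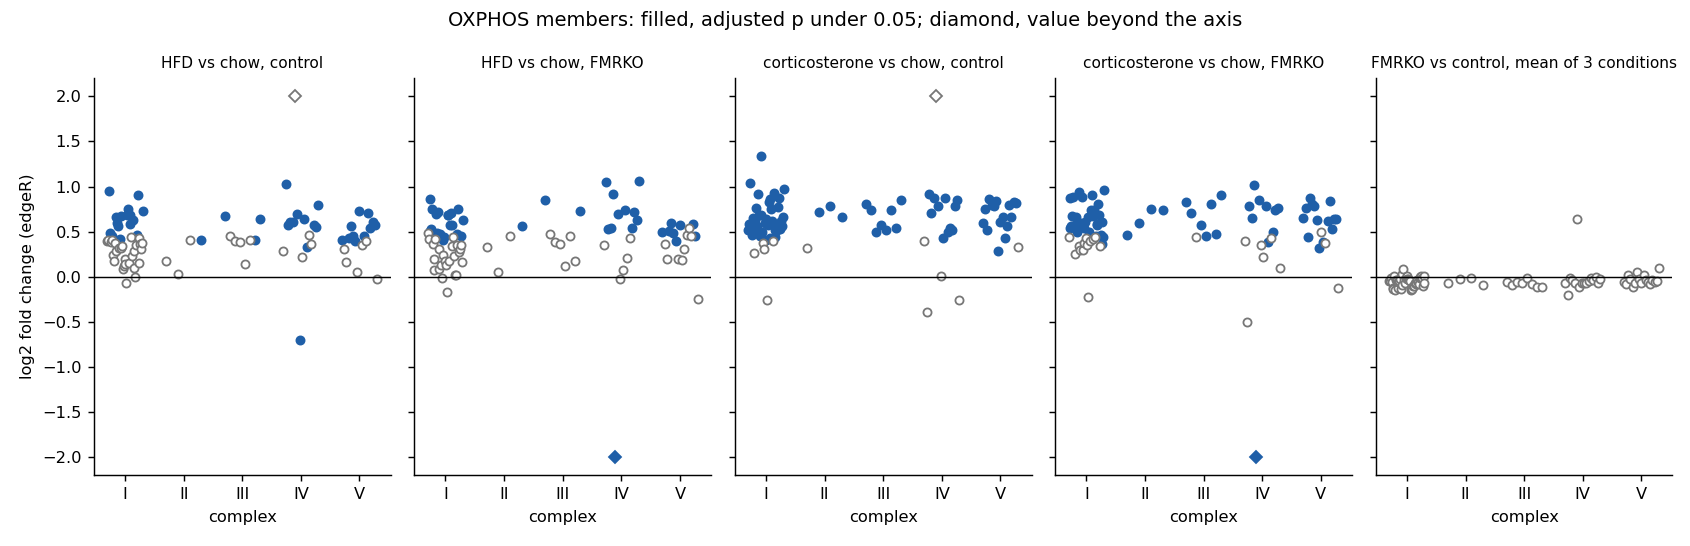
Log2 fold change (y axis, drawn from -2 to 2) of each of the 89 members by complex (x axis) in 5 comparisons, filled where the edgeR adjusted p was under 0.05 and drawn as a diamond where the value lies beyond the axis. Nearly all points sit above 0 in the comparisons with chow, and none is filled for FMRKO against control.

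The comparisons with chow share their chow libraries, so their calls are not independent. Side by side, 63 members were higher with corticosterone in both genotypes, 32 were higher on HFD in both, and 29 were higher in all 4. Another 8 members, Atp5s, Cox4i1, Cox6a2, Cox6b2, Ndufa5, Ndufaf6, Ndufb2 and Ndufb9, were higher in none of the 4. Cox4i2 and Ndufa4l2 were higher on HFD in both genotypes and were not called with corticosterone in either.

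The fat cell markers of the libraries moved beside the members. The mean log2 CPM of 10 adipocyte genes ran from 9.85 to 10.8 in chow controls, 9.86 to 10.7 in chow FMRKO, 9.97 to 10.9 in HFD controls, 10.2 to 10.95 in HFD FMRKO, 10.8 to 11.1 in corticosterone controls and 10.97 to 11.1 in corticosterone FMRKO libraries. With corticosterone 5 of these 10 genes rose and 1 fell in each genotype, while 8 of 8 endothelial and 8 of 9 fibroblast genes fell in controls, and 5 of 8 and 5 of 9 in FMRKO mice. In bulk tissue, more cells of a type and more RNA per cell cannot be told apart. With the adipocyte score added to the model, 48 members were higher with corticosterone in controls, with a median of 0.27, and 16 were higher and 3 lower in FMRKO mice, with a median of 0.09. On HFD the same model gave 64 higher and 1 lower in controls, with a median of 0.31, and 29 higher and 6 lower in FMRKO mice, with a median of 0.15. In neither genotype did the adipocyte score overlap between corticosterone and chow libraries. The model therefore cannot fully separate the score from corticosterone, nor fat cell content from an effect of a treatment on the score's genes.

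**Figure D3:**
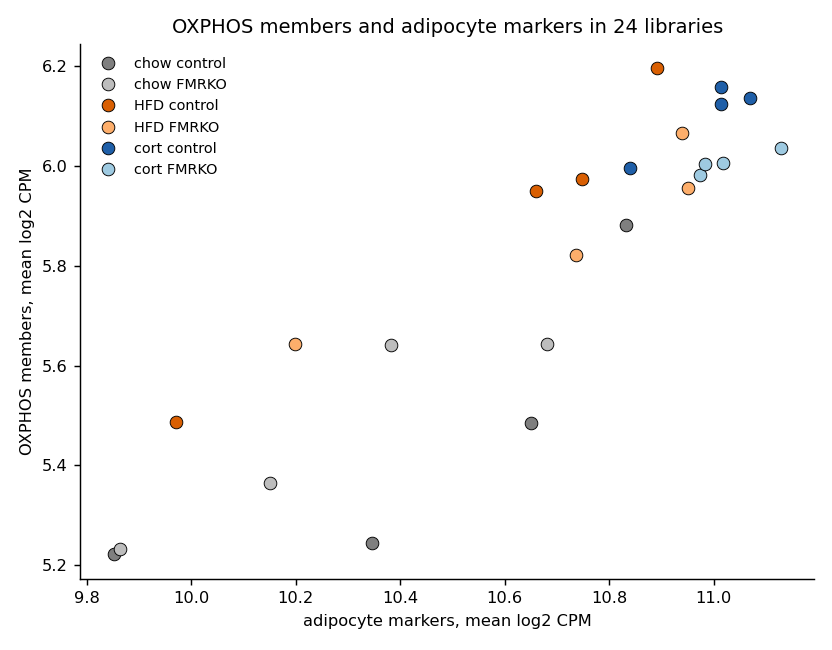
Mean log2 CPM of the 89 members (y axis) against that of 10 adipocyte marker genes (x axis), 1 point per library, coloured by group. Chow control library 2 sits lowest on both axes (5.22 and 9.85), and the 8 corticosterone libraries sit at 10.8 to 11.1 on the x axis and 5.98 to 6.16 on the y axis.

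Complex I, the NADH dehydrogenase, is built of catalytic core subunits, many accessory subunits and a set of assembly factors that leave the finished enzyme. With corticosterone 39 of its 44 members were higher in controls and 31 in FMRKO mice, and on HFD 16 and 19. The core subunit Ndufs3 rose with corticosterone by 0.56 ± 0.14 (SE, adjusted p = 0.0026, edgeR) in controls and 0.59 ± 0.14 (adjusted p = 0.0021) in FMRKO mice, with all 4 libraries above all 4 chow libraries in both genotypes. In FMRKO mice its value was 0.17 (adjusted p = 0.16) with the adipocyte score in the model and 0.45 (adjusted p = 0.11) without both kinds of rich libraries. On HFD it gave 0.35 ± 0.14 (adjusted p = 0.061) and 0.35 ± 0.14 (adjusted p = 0.067). Of the 29 accessory subunits, 26 and 20 were higher with corticosterone and 13 and 15 on HFD. Of the 8 assembly factors, 6 and 4 were higher with corticosterone and 3 and 3 on HFD. No test of the difference between these classes was made.

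Ndufaf4, an assembly factor of complex I, had the largest rise with corticosterone in controls. On chow it stood at 6.97, 6.85, 5.33 and 6.3 CPM in the control libraries and 7.95, 10.9, 6.37 and 7.7 CPM in the FMRKO libraries. On HFD it stood at 10.2, 12.4, 10.1 and 8.12 CPM in the control libraries and 8.76, 9.2, 9.98 and 7.91 CPM in the FMRKO libraries. With corticosterone it stood at 17.3, 13.8, 16.2 and 17.3 CPM in the control libraries and 15.6, 15.1, 15.4 and 14.5 CPM in the FMRKO libraries. Each of the 8 corticosterone libraries was above each of the other 16, while HFD libraries were all above chow in controls only. The log2 fold change with corticosterone was 1.34 ± 0.15 (SE, adjusted p = 7.7e-07, edgeR) in controls and 0.88 ± 0.14 (adjusted p = 8.5e-05) in FMRKO mice. Against HFD, it was higher with corticosterone by 0.67 ± 0.14 (adjusted p = 0.0022) and 0.76 ± 0.14 (adjusted p = 0.001). In controls the call against HFD did not pass with muscle and lymphocyte scores in the model (0.37, adjusted p = 0.078) or without both kinds of rich libraries (0.47, adjusted p = 0.12).

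Ndufa11, an accessory subunit of the membrane arm, rose in all 4 comparisons with chow. Chow gave 49.4, 28.2, 32 and 29.6 CPM in the control libraries and 32.1, 38.4, 35.5 and 40.5 CPM in the FMRKO libraries. HFD gave 69.8, 84.1, 68.8 and 45.9 CPM in the control libraries and 60.2, 66, 82.8 and 57.1 CPM in the FMRKO libraries. Corticosterone gave 72.8, 67.5, 75.4 and 71.3 CPM in the control libraries and 67.6, 62.5, 71.9 and 66.2 CPM in the FMRKO libraries. The corticosterone libraries lay above the chow libraries without overlap, and on HFD only control library 4 fell under the highest chow control. The log2 fold change was 0.95 ± 0.17 (adjusted p = 0.00028) and 0.86 ± 0.17 (adjusted p = 0.00075) on HFD, and 1.04 ± 0.17 (adjusted p = 5.7e-05) and 0.87 ± 0.17 (adjusted p = 0.00038) with corticosterone, for controls and FMRKO mice. Ndufs5, another accessory subunit, rose by 0.90 ± 0.18 (adjusted p = 0.00072) and 0.75 ± 0.18 (adjusted p = 0.0038) on HFD.

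Complex II, succinate dehydrogenase, is also an enzyme of the citric acid cycle, and all 4 of its genes are nuclear. With corticosterone Sdhb, Sdhc and Sdhd were higher in controls and all 4 in FMRKO mice. On HFD only Sdhd, a membrane anchor, passed, at 0.41 ± 0.15 (adjusted p = 0.044) in controls and 0.57 ± 0.15 (adjusted p = 0.0085) in FMRKO mice. The flavoprotein Sdha gave 0.31 ± 0.17 (adjusted p = 0.14) with corticosterone in controls and 0.46 ± 0.17 (adjusted p = 0.035) in FMRKO mice, where its value was -0.08 with the adipocyte score in the model. Without chow FMRKO library 1, 3 or 5 or corticosterone FMRKO library 1, 3 or 4, Sdha gave 0.41 to 0.46 there and did not pass (adjusted p = 0.058 to 0.086). Sdhd in HFD controls likewise did not pass without HFD control library 1, 2 or 3 or chow control library 2, 4 or 5, at 0.29 to 0.42 (adjusted p = 0.068 to 0.15). The anchor Sdhc rose by 0.78 ± 0.17 (adjusted p = 0.00077) and 0.75 ± 0.17 (adjusted p = 0.0014).

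Sdhb, the iron-sulfur subunit, rose with corticosterone and was not called on HFD. On chow it stood at 137, 72, 97 and 81.5 CPM in the control libraries and 79.8, 118, 92.6 and 101 CPM in the FMRKO libraries. On HFD it stood at 109, 117, 99.4 and 71.3 CPM in the control libraries and 102, 109, 112 and 82.8 CPM in the FMRKO libraries. With corticosterone it stood at 176, 133, 156 and 174 CPM in the control libraries and 146, 151, 146 and 146 CPM in the FMRKO libraries. All corticosterone libraries were above all HFD libraries of their genotype, and in controls corticosterone library 2 alone fell under the highest chow library. Against chow the log2 fold change was 0.72 ± 0.17 (adjusted p = 0.0022) in controls and 0.59 ± 0.17 (adjusted p = 0.0098) in FMRKO mice. Against HFD it was 0.69 ± 0.17 (adjusted p = 0.0064) and 0.53 ± 0.17 (adjusted p = 0.038), and HFD against chow gave 0.03 ± 0.17 and 0.06 ± 0.17. Without the lymphocyte-rich libraries the values against HFD were 0.58 (adjusted p = 0.052) and 0.44 (adjusted p = 0.16), and with the adipocyte score in the model the value against chow in FMRKO mice was 0.05 (adjusted p = 0.74). In FMRKO mice the call against HFD was also lost without HFD FMRKO library 4 (0.49, adjusted p = 0.072) or corticosterone FMRKO library 3 (0.54, adjusted p = 0.064).

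Complex III, the cytochrome bc1 complex, had 8 of 8 members higher with corticosterone in controls and 7 of 8 in FMRKO mice, against 3 and 2 on HFD. The small subunits Uqcrq and Uqcr10 led in both treatments. On chow Uqcrq stood at 128, 71.1, 94.7 and 73.8 CPM in the control libraries and 65.7, 100.2, 78 and 85.6 CPM in the FMRKO libraries. HFD gave 147, 173, 149 and 104 CPM in the control libraries and 123, 148, 167 and 108 CPM in the FMRKO libraries. Corticosterone gave 184, 144, 163 and 171 CPM in the control libraries and 162, 141, 152 and 160.0 CPM in the FMRKO libraries. Groups did not overlap between corticosterone and chow, and on HFD they overlapped in controls and not in FMRKO mice. The log2 fold change of Uqcrq was 0.85 ± 0.18 (adjusted p = 0.00078) and 0.90 ± 0.18 (adjusted p = 0.00055) with corticosterone, and 0.64 ± 0.18 (adjusted p = 0.011) and 0.73 ± 0.18 (adjusted p = 0.005) on HFD.

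Complex IV, cytochrome c oxidase, has 11 members found in most tissues and 5 that are isoforms or related proteins. Of the 11 common subunits, 10 were higher with corticosterone in controls and 8 in FMRKO mice, and 7 and 8 on HFD. With corticosterone, the largest rise of complex IV was that of Cox5a in controls, 0.91 ± 0.18 (adjusted p = 0.00039). In FMRKO mice it was that of Cox6a1, 1.02 ± 0.21 (adjusted p = 0.00062). Cox6b1 rose by 0.70 ± 0.18 (adjusted p = 0.0052) and 0.70 ± 0.18 (adjusted p = 0.0062) on HFD. Cox4i1, the common form of the regulatory subunit 4, did not pass in any of the 4, with values of 0.29 and 0.35 on HFD and 0.39 (adjusted p = 0.056) and 0.40 (adjusted p = 0.057) with corticosterone.

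The isoform Cox4i2, known from lung, vessel-associated cells and low oxygen, had another pattern. Chow gave 1.9, 1.66, 1.46 and 1.85 CPM in the control libraries and 2.04, 1.17, 1.13 and 1.72 CPM in the FMRKO libraries. Its level on HFD was 2.39, 3.8, 3.48 and 4.3 CPM in the control libraries and 3.73, 2.75, 3.89 and 2.26 CPM in the FMRKO libraries. Its level with corticosterone was 1.22, 1.44, 1.16 and 1.41 CPM in the control libraries and 0.663, 0.972, 1.09 and 1.54 CPM in the FMRKO libraries. Each of the 8 HFD libraries was above each of the other 16. Cox4i2 rose on HFD by 1.02 ± 0.25 (adjusted p = 0.0043) in controls and 1.06 ± 0.25 (adjusted p = 0.0041) in FMRKO mice. Corticosterone against HFD gave -1.41 ± 0.25 (adjusted p = 0.00048) and -1.56 ± 0.26 (adjusted p = 0.00026), and corticosterone against chow gave -0.39 (adjusted p = 0.22) and -0.51 (adjusted p = 0.12).

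Ndufa4l2, a relative of Ndufa4 that is known to be induced in low oxygen, moved in the same directions as Cox4i2 on HFD and between the treatments. Its level on chow was 8.22, 8.59, 4.62 and 4.45 CPM in the control libraries and 4.02, 5.92, 6.37 and 5.72 CPM in the FMRKO libraries. On HFD it stood at 9.71, 13, 13.3 and 8.98 CPM in the control libraries and 12.1, 10.5, 16.4 and 6.97 CPM in the FMRKO libraries. With corticosterone it stood at 4.3, 5.72, 6.07 and 5.56 CPM in the control libraries and 6.81, 4.15, 6.88 and 5.57 CPM in the FMRKO libraries. HFD libraries were above chow and corticosterone libraries of the same genotype without overlap. The rise on HFD was 0.80 ± 0.26 (adjusted p = 0.024) in controls and 1.06 ± 0.26 (adjusted p = 0.0045) in FMRKO mice, and corticosterone against HFD gave -1.06 ± 0.26 (adjusted p = 0.0054) and -0.97 ± 0.26 (adjusted p = 0.012). In controls the HFD call did not pass without HFD control library 2 (0.69, adjusted p = 0.073) or 3 (0.68, adjusted p = 0.072), or without chow control library 4 (0.66, adjusted p = 0.083) or 5 (0.62, adjusted p = 0.099). In FMRKO mice the call against HFD did not pass without HFD FMRKO library 3 (-0.72, adjusted p = 0.066) or corticosterone FMRKO library 2 (-0.80, adjusted p = 0.055).

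Endothelial markers are given beside these isoforms. The mean log2 CPM of 8 endothelial genes was 6.17 to 6.86 on HFD, 5.97 to 6.72 on chow and 5.50 to 5.91 with corticosterone, and 2 of 8 rose on HFD in controls and 3 of 8 in FMRKO mice. In controls the group mean was 6.60 on HFD, 6.59 on chow and 5.63 with corticosterone. In FMRKO mice it was 6.59 on HFD, 6.25 on chow and 5.76 with corticosterone. The part of these cells in the isoforms was not tested. The common partner Ndufa4, a complex IV subunit, rose in all 4 comparisons with chow, by 0.56 ± 0.19 (adjusted p = 0.032) and 0.63 ± 0.19 (adjusted p = 0.019) on HFD and 0.85 ± 0.19 (adjusted p = 0.0012) and 0.76 ± 0.19 (adjusted p = 0.0035) with corticosterone. On HFD its call was lost in 9 of 18 alternative fits in controls and 5 in FMRKO mice, among them those without HFD control library 1, 2 or 3, chow control library 2, 4 or 5, HFD FMRKO library 2 or 3, or chow FMRKO library 1 or 3, where it gave 0.43 to 0.59 (adjusted p = 0.051 to 0.1). Cox7a2l, a supercomplex assembly protein, rose by 0.32 ± 0.08 (adjusted p = 0.0042) on HFD in controls, gave 0.21 ± 0.08 (adjusted p = 0.058) in FMRKO mice, and rose by 0.50 ± 0.08 (adjusted p = 5.3e-05) and 0.39 ± 0.08 (adjusted p = 0.00069) with corticosterone.

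**Figure D4:**
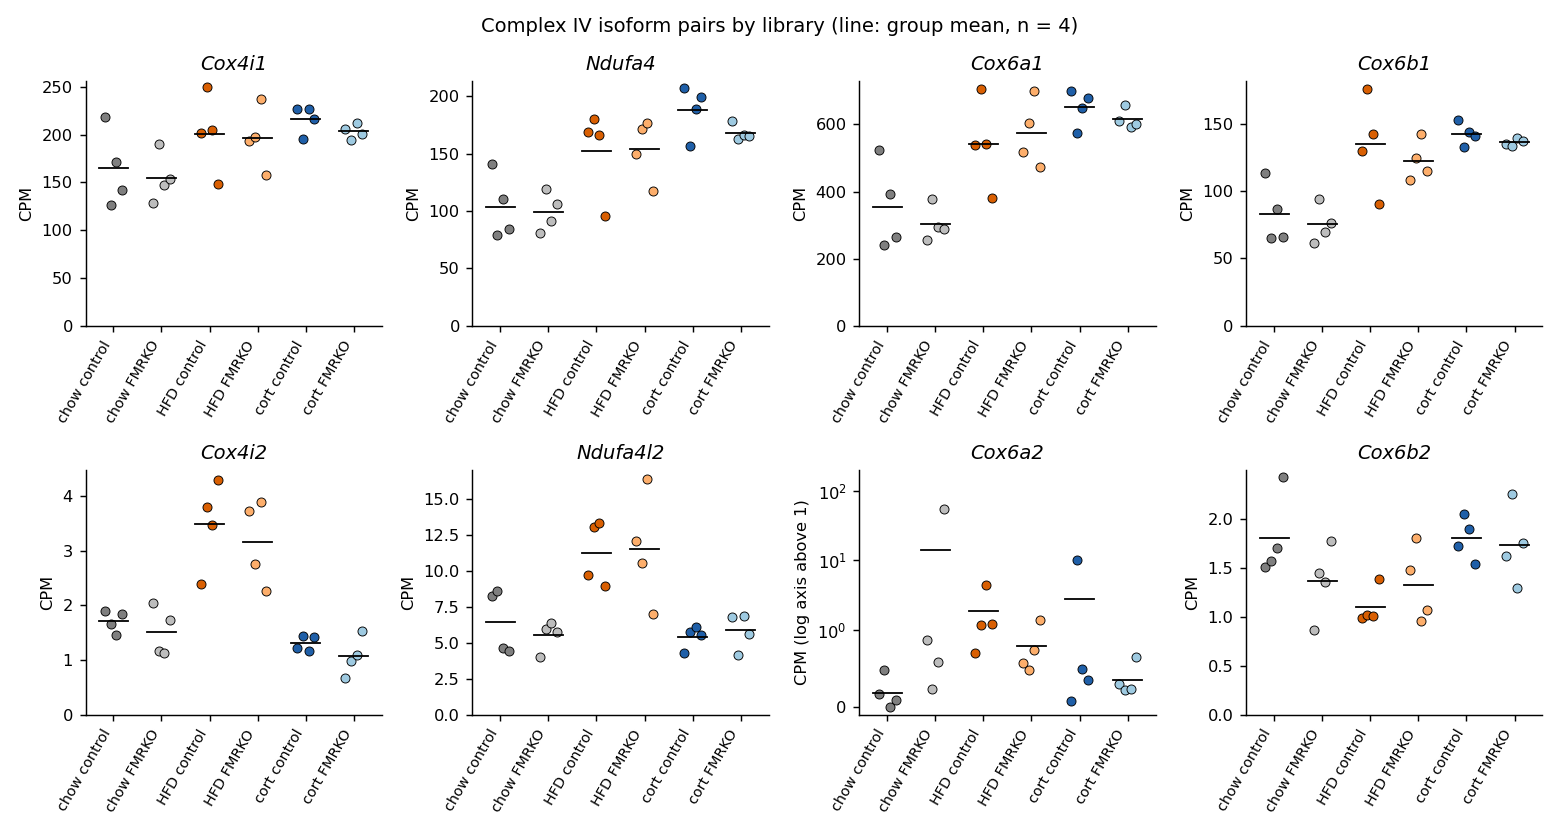
CPM of 4 complex IV subunits (top row) and their isoforms or relatives (bottom row) in each library by group, with group means as lines (n = 4); the axis of Cox6a2 is logarithmic above 1. Cox4i2 lies at 2.26 to 4.30 CPM on HFD and at 0.663 to 2.04 CPM elsewhere, while Cox6a2 has 1 chow FMRKO library at 53.6 CPM.

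Cox6a2, the isoform of heart and skeletal muscle, was high where muscle genes were high. On chow it stood at 0.161, 0.482, 0 and 0.0881 CPM in the control libraries and 0.865, 0.234, 0.582 and 53.6 CPM in the FMRKO libraries. HFD gave 0.7, 1.15, 4.45 and 1.2 CPM in the control libraries and 0.563, 0.473, 0.734 and 1.38 CPM in the FMRKO libraries. Corticosterone gave 0.0717, 10.0, 0.495 and 0.342 CPM in the control libraries and 0.295, 0.221, 0.235 and 0.643 CPM in the FMRKO libraries. The 3 highest values are those of chow FMRKO library 5, corticosterone control library 2 and HFD control library 3, which are also the 3 muscle-rich libraries. The calls of -4.11 ± 1.47 (adjusted p = 0.046) on HFD and -5.28 ± 1.58 (adjusted p = 0.012) with corticosterone in FMRKO mice rest on chow FMRKO library 5. Without it the values were 0.48 (adjusted p = 0.8) and -0.69 (adjusted p = 0.66). The HFD call was also lost without any 1 of the 4 HFD FMRKO libraries, at -4.58 to -3.96 (adjusted p = 0.058 to 0.11). Cox6b2, a low isoform at 0.865 to 2.42 CPM over all libraries, gave -0.71 ± 0.25 (adjusted p = 0.038) on HFD in controls, and this call was lost in 12 of 18 alternative fits, among them those without HFD control library 1, 2 or 3 or chow control library 4 or 5 (-0.73 to -0.55, adjusted p = 0.057 to 0.12).

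Complex V, the ATP synthase, had 16 of 17 members higher with corticosterone in controls and 14 in FMRKO mice, against 11 and 8 on HFD. All 5 subunits of the catalytic F1 head (Atp5a1, Atp5b, Atp5c1, Atp5d and Atp5e) were higher with corticosterone in both genotypes, with medians of 0.75 and 0.76, and 3 of 5 on HFD. Of the 11 subunits of the membrane part and stalk, 11 and 9 were higher with corticosterone and 8 and 5 on HFD. The associated protein Atp5s, also called factor B, was not called in any comparison.

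Atp5d, the delta subunit of the central stalk of F1, had the largest rise of complex V with corticosterone. Chow gave 201, 118, 156 and 126 CPM in the control libraries and 120.5, 159.6, 142 and 155 CPM in the FMRKO libraries. Its level on HFD was 208, 242, 205 and 154 CPM in the control libraries and 191, 212, 244 and 172 CPM in the FMRKO libraries. Its level with corticosterone was 293, 237, 267 and 297 CPM in the control libraries and 263, 265, 265 and 263 CPM in the FMRKO libraries. Every corticosterone library was above every chow library, and the 4 corticosterone FMRKO libraries lay between 263 and 265 CPM. The log2 fold change was 0.86 ± 0.15 (adjusted p = 0.00014) in controls and 0.87 ± 0.15 (adjusted p = 0.00016) in FMRKO mice.

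The c subunit of the rotor is encoded by 3 genes for the same mature protein. Atp5g1 rose with corticosterone by 0.84 ± 0.13 (adjusted p = 3.6e-05) and 0.63 ± 0.13 (adjusted p = 0.00075), and against HFD by 0.45 ± 0.13 (adjusted p = 0.015) in controls. Atp5g3 gave 0.60 ± 0.20 (adjusted p = 0.019) and 0.49 ± 0.20 (adjusted p = 0.052) with corticosterone and 0.73 ± 0.20 (adjusted p = 0.009) and 0.57 ± 0.20 (adjusted p = 0.042) on HFD. In FMRKO mice the HFD call of Atp5g3 was lost without HFD FMRKO library 1, 2 or 3 or chow FMRKO library 1 or 3, at 0.40 to 0.58 (adjusted p = 0.052 to 0.19). Atp5g2 rose by 0.28 ± 0.09 (adjusted p = 0.022) and 0.32 ± 0.10 (adjusted p = 0.011) with corticosterone and gave 0.05 and 0.20 on HFD.

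**Figure D5:**
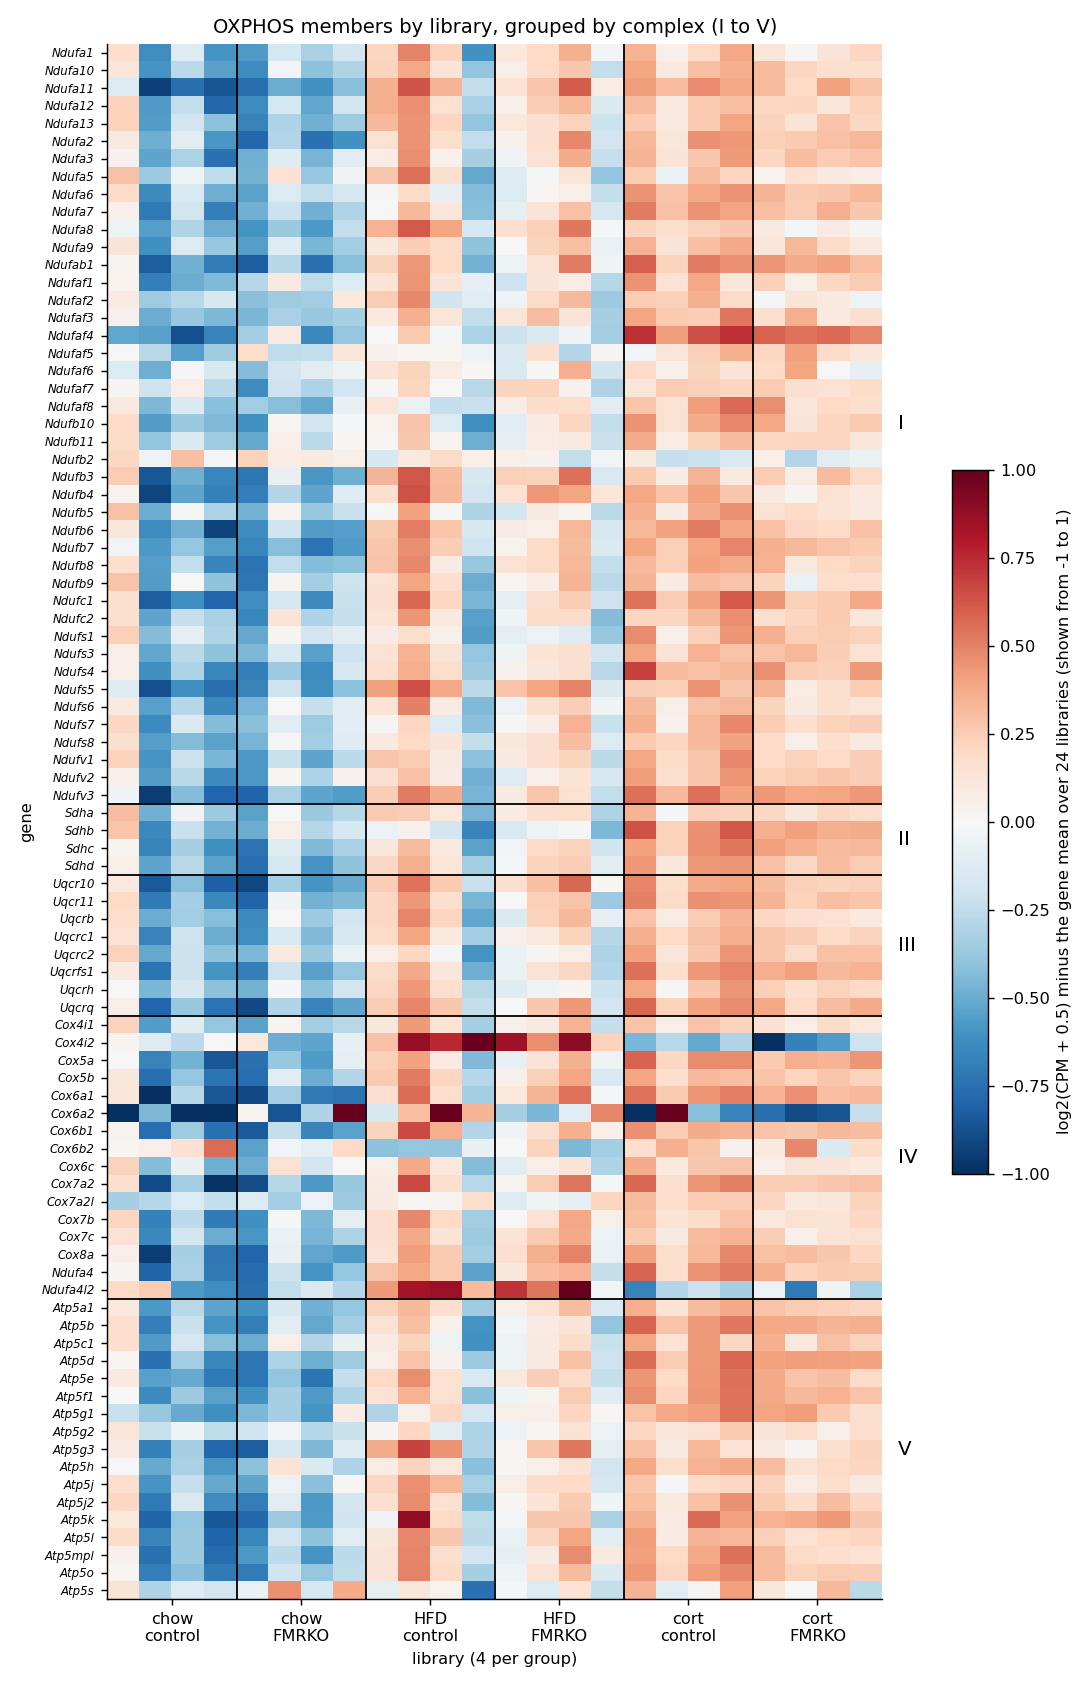
The 88 rows are members, 1 gene each, ordered by complex and symbol, each column 1 of the 24 libraries, and the colour is log2(CPM + 0.5) minus the gene's mean over all libraries, shown from -1 to 1. Most rows are low on chow and high with corticosterone, and Cox4i2 and Ndufa4l2 are high in the HFD columns.

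Set directly against HFD, corticosterone gave calls for few members. In controls 8 of 89 were higher and 2 lower, beside 10.6% and 14.2% of all genes, and in FMRKO mice 3 were higher and 2 lower, beside 7.27% and 8.49%. The 2 lower members were Cox4i2 and Ndufa4l2 in both genotypes. Ndufaf4 and Sdhb were among the higher members in both genotypes. Groups did not overlap, corticosterone above HFD, for 7 members in controls and 19 in FMRKO mice, beside 13.1% and 12.9% of all genes, and below HFD for Cox4i2 and Ndufa4l2 in both, beside 14.8% and 12.1%. The count of calls in controls was 31 without HFD control library 2, 19 without corticosterone control library 2, 5 without the lymphocyte-rich libraries, 4 with muscle and lymphocyte scores in the model and 1 without both kinds of rich libraries. In FMRKO mice it was 5, and 20 with the compared groups fitted alone and 13 with the adipocyte score in the model, of which 8 were lower.

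No member differed between FMRKO and control mice past the threshold. The comparison gave 0 of 89 on chow, HFD or corticosterone and in the mean of the 3 conditions, by edgeR and by DESeq2, where edgeR called 0.0101%, 0.0101%, 0.00507% and 0.0355% of all genes. In the mean of the 3 conditions 0.0254% of all genes were higher and 0.0101% lower. At an unadjusted p under 0.05 edgeR gave 3 members on chow (Cox6a2, Ndufa2 and Ndufaf4) and 0 in the others. The share of all genes at that threshold is not given, so these counts are not read as differences. Cox6a2 was high in the muscle-rich chow FMRKO library 5. Over the 84 members other than the 5 complex IV isoforms and relatives, the log2 fold change in the mean of the 3 conditions lay between -0.15 and 0.09, and the 95% intervals of single members reached from -0.38 to 0.35. With corticosterone 85 of 89 values lay below 0, with a median of -0.09 against 0.01 over all genes. There 0 members were above and 5 below without overlap (Ndufa8, Ndufaf2, Ndufb4, Ndufb6 and Ndufs8), beside 2.44% and 2.49% of all genes. Members moved together over the 24 libraries, with a median r of 0.95 with the mean of the other members and 78 of 89 above 0.8. The 85 values below 0 are therefore not independent of each other, and the share of all genes below 0 is not given. On chow and HFD 0 members were without overlap, beside 1.59% and 1.53% of all genes above and 1.61% and 0.847% below.

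The genotype effect was not shown to depend on treatment. The FMRKO effect on HFD, or with corticosterone, minus that on chow was called for 0 of 89 members by edgeR and DESeq2 and for 0.0% of all genes by edgeR. At an unadjusted p under 0.05 it gave 3 members for HFD and 2 for corticosterone. Both held Ndufaf4, with a difference of -0.46 ± 0.20 for corticosterone (adjusted p = 0.81), and Cox6a2. These counts too have no share of all genes beside them and are not read as differences.

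Other genes of the respiratory system were read from lists. Of the 13 subunits encoded in mitochondrial DNA, 9 rose with corticosterone in controls, with a median of 0.61, and 5 in FMRKO mice. On HFD 3 rose in controls, and 0 rose and 1 fell in FMRKO mice. Of 40 assembly factors outside the set, 27 rose and 2 fell with corticosterone in controls and 29 rose in FMRKO mice, and on HFD 21 rose and 1 fell in controls and 15 rose in FMRKO mice. Cytochrome c (Cycs) rose by 1.20 ± 0.19 (adjusted p = 6.2e-05) and 1.23 ± 0.19 (adjusted p = 5.8e-05) with corticosterone and by 1.09 ± 0.19 (adjusted p = 0.0003) and 0.86 ± 0.19 (adjusted p = 0.0025) on HFD. Of 19 electron carrier genes including Cycs, 11 rose and 1 fell with corticosterone in controls and 9 rose in FMRKO mice. On HFD 4 rose and 1 fell in controls and 3 rose and 2 fell in FMRKO mice. Beside the lists above, 20.2% of all genes rose with corticosterone in each genotype, and 22.7% and 20.9% fell. On HFD 15.3% rose and 13.9% fell in controls, and 15.2% and 9.18% in FMRKO mice. The electron carrier counts on HFD in FMRKO mice are near those shares.

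Genes of the wider mitochondrion moved in the same direction as most members. Of 23 genes of mitochondrial transport, import, chaperones and membrane shape, with citrate synthase, 21 rose with corticosterone in controls and 19 in FMRKO mice, and 15 and 11 on HFD. Of 78 mitochondrial ribosomal protein genes, 66 and 63 rose with corticosterone, with medians of 0.59 and 0.60, and 46 and 44 on HFD, with medians of 0.40 and 0.40. Of 83 cytosolic ribosomal protein genes, 43 and 13 rose with corticosterone, beside 20.2% of all genes in each genotype. On HFD 26 and 12 rose, beside 15.3% and 15.2%. Since members are mostly short genes, 2978 other protein-coding genes under 2000 bases serve as a further comparison. Their medians were 0.14 and 0.13 with corticosterone and 0.21 and 0.13 on HFD.

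Of 22 known regulators of respiratory genes, 4 rose and 4 fell with corticosterone in controls, beside 20.2% and 22.7% of all genes, and 3 rose and 5 fell in FMRKO mice, beside 20.2% and 20.9%. On HFD 1 rose and 3 fell in each genotype, beside 15.3% and 13.9% of all genes in controls and 15.2% and 9.18% in FMRKO mice. With corticosterone these counts are near the share of all genes, so the list is not set apart by them. Esrra, a nuclear receptor that drives respiratory genes, rose with corticosterone by 0.71 ± 0.11 (adjusted p = 3.6e-05) and 0.58 ± 0.11 (adjusted p = 0.0003). Nrf1 fell by 0.42 on the log2 scale (SE 0.14, adjusted p = 0.024) and by 0.52 (SE 0.14, adjusted p = 0.0071). The regulator that rose on HFD was Esrrg, an estrogen-related receptor, which stood at 4.04 to 9.01 CPM in HFD libraries, at 0.151 to 1.31 on chow and at 0.147 to 2.15 with corticosterone. It rose on HFD by 4.90 ± 0.60 (adjusted p = 5.8e-06) in controls and 2.77 ± 0.53 (adjusted p = 0.0007) in FMRKO mice, and with corticosterone gave 2.12 ± 0.57 (adjusted p = 0.0053) and 0.66 ± 0.52 (adjusted p = 0.33). With the replicate block its corticosterone value in controls was 2.03 (adjusted p = 0.056). The coactivator Ppargc1a fell on HFD by 0.79 (SE 0.29, adjusted p = 0.047) and by 0.99 (SE 0.29, adjusted p = 0.017), and gave 0.12 and 0.24 with corticosterone, where it did not pass. The Nrf1 call in controls was lost without chow control library 2 or 5 or any 1 corticosterone control library, at -0.43 to -0.35 (adjusted p = 0.052 to 0.11). The Ppargc1a call was lost without HFD control library 1, 2 or 4, chow control library 1, 4 or 5, or chow FMRKO library 2, at -0.85 to -0.41 (adjusted p = 0.052 to 0.27). Of 9 brown or beige fat genes, 5 rose and 1 fell on HFD in controls and 2 rose and 1 fell in FMRKO mice. Ucp1, the uncoupling protein, stood at 5.35 to 37.6 CPM in HFD libraries, at 0 to 2.89 on chow and at 0.413 to 2.88 with corticosterone. The part of brown or beige cells in the HFD values of the members was not tested.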

How the data were processed

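Total RNA of inguinal fat was depleted of ribosomal RNA with a KAPA RiboErase kit, per the labels' protocols. Reads were aligned with STAR 2.5.1a to GRCm38 and counted per gene with featureCounts 1.4.6p-5 of Subread, per the submitters' processing notes. The files hold the counts per gene deposited by the authors, with no normalization. The authors' deposited CPM and RPKM, which scale those counts by the library total and the gene's length, were recomputed from them within rounding.

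Gene IDs were joined to symbols, types and positions of GENCODE M21 (GRCm38), where 97.3% of the files' genes had a symbol. Of all genes, 19717 passed filterByExpr of edgeR 4.0.16 (minimum count 10) and were tested in R 4.3.3 with TMM scaling, 1 mean for each of 6 groups of 4 libraries, the quasi-likelihood test and Benjamini-Hochberg adjustment at 0.05. This leaves 18 residual degrees of freedom, with a biological coefficient of variation of 33.7%. The spread is thus estimated over all 6 groups together. The SD of the members' mean log2 CPM ran from 0.023 in corticosterone FMRKO to 0.31 in chow control libraries. Error terms are standard errors of log2 fold changes and SDs of levels. The script was tested on simulated data. Library totals of 17925109 to 40427675 counts set the counting error, which touches mainly Cox6a2, Cox6b2 and Cox4i2. No 2 libraries of a group agreed within sampling noise (smallest chi-square per degree of freedom 11.5), so each was counted as 1 library. This excludes only repeat sequencing of the same library, and cannot show whether libraries came from separate animals.

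The members and lists were chosen with earlier results of these data known. Named with full statistics are up to 2 called members per complex and direction, the isoform pairs, the c subunit genes and the 4 Sdh genes. Other named members were chosen for their pattern after values were seen, and 1 member is in the counts but is not reported by name here. Same-numbered HFD libraries of the 2 genotypes deviated together from their group means (r from 0.20 to 0.72 in 4 of 4 pairs). Other pairs of HFD libraries gave r from -0.59 to 0.24, which overlaps that range. Libraries 1 and 4 were lymphocyte-rich in both genotypes, so a pairing by number is not shown. With the pair in the model 0 members were called. Alternatives were DESeq2 1.42.0, its size factors in edgeR, no filter, a fit of the compared groups only, a replicate block, each library left out in turn, marker scores as covariates, and fits without muscle-rich or lymphocyte-rich libraries.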

Additional observations from a re-analysis of the deposited data

Results flagged for a closer look

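In groups of 4, a library was set apart where its gap to the nearest other library passed Dixon's 95% limit for the group's range, and chance does this in about 1 of 20 groups. Of 90 groups examined, 3 held such a library. In corticosterone control library 2 the mean log2 CPM of complex I was 5.55, against 5.72 to 5.75 in the other 3 of its group. The same library was rich in muscle genes, and their part in this value was not tested. The mean log2 CPM of complex IV was 5.62 in corticosterone FMRKO library 4, against 5.49 to 5.51 in its group. Sdhb stood at 7.24 log2 CPM in corticosterone FMRKO library 2, against 7.19 in each of the other 3, a gap set by how close those 3 are.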

How the results depend on the processing

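Each count below is of members called in either direction. The HFD count in controls, 42, was 8 with the compared groups fitted alone, 9 with a replicate block, 65 with the adipocyte score and 77 with muscle and lymphocyte scores as covariates, 66 without lymphocyte-rich and 27 without muscle-rich libraries, and 17 to 67 with 1 library left out. In FMRKO mice the HFD count, 41, was 23 without lymphocyte-rich libraries, 3 without both kinds of rich libraries and 16 to 45 with 1 library left out. The corticosterone count, 77 in controls, was 48 with the adipocyte score and 67 to 80 with 1 library left out. In FMRKO mice it was 66, and 19 with the adipocyte score, 29 with muscle and lymphocyte scores, 43 without lymphocyte-rich libraries, 7 without both kinds and 55 to 76 with 1 left out. Corticosterone against HFD gave 10 in controls, and 4 with muscle and lymphocyte scores, 5 without lymphocyte-rich libraries, 1 without both kinds and 9 to 31 with 1 left out. In FMRKO mice it gave 5, and 20 with the groups fitted alone, 13 with the adipocyte score and 4 to 6 with 1 left out. FMRKO against control gave 0 members in every alternative run.

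Among called values of the named genes, those that changed sign were of Cox6a2 and Sdha in FMRKO mice. Cox6a2 on HFD went from -4.11 to 0.12 with the replicate block, 0.36 with muscle and lymphocyte scores, 0.42 without muscle-rich libraries and 1.37 without both kinds, and ranged from -4.58 to 0.48 with 1 library left out. Cox6a2 with corticosterone went to 0.61 without both kinds, and Sdha with corticosterone to -0.082 with the adipocyte score. The causes were not tested, apart from the fewer libraries in some fits. Over named genes, 2371 of the values under scaling, filter, tool, block and single-library alternatives kept their direction and side of the threshold, 165 lost a call, 55 gained one and 2 changed sign. Marker scores as covariates and fits without rich libraries were chosen after seeing the data, and gave 808, 139, 48 and 5. Outside the HFD genotype comparison, same-numbered libraries stayed within the range of other pairs (r from -0.37 to 0.59 over 20 pairs of conditions). The block moved no count by over 1.5 times but that of HFD controls. With 4 libraries a group and a variation of 33.7%, differences well under those listed could not be detected.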
